A study of Mus musculus with 14 samples.

Results

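The transglutaminases *Tgm1* and *Tgm2* were examined in brain hemispheres of mice with and without cortistatin, 48 h after transient middle cerebral artery occlusion (MCAO). They are 2 of the 46904 genes in the deposited table, and both were chosen from the change between hemispheres, in which *Tgm1* headed the ranking by log2 fold change in both genotypes. The 4 groups were contralateral (CL) and ischemic (MCAO) hemispheres of wild-type (*Cort*+/+) mice, with 3 libraries each, and of mice deficient in the cortistatin gene (*Cort*-/-), with 3 CL and 5 MCAO libraries. The paper names 5 MCAO replicates, whereas the series holds only replicates 2, 3 and 4 of *Cort*+/+ MCAO. Its methods kept only replicates that grouped clearly where variability was large, and whether this applied here is not stated. Mice of both genotypes were males 12 weeks old on a C57BL/6J background, and their left artery was occluded for 20 min, a mild form of the model. CL hemispheres came from operated brains, so no group was free of surgery. The deficiency of *Cort*-/- mice was not limited to a cell type or a time. Each library held polyA RNA of a whole hemisphere, in which a change in the number of cells of a type and a change in RNA per cell cannot be told apart.

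Transglutaminases join proteins by linking a glutamine of one chain to a lysine of another, a reaction that needs calcium. TGM1 is best known in skin, where it is anchored to the membrane of keratinocytes and builds the cornified envelope, and its inherited loss causes lamellar ichthyosis. TGM2, tissue transglutaminase, is made by many cells including endothelium, astrocytes and macrophages, binds GTP, and outside the cell holds fibronectin to integrins. Retinoic acid and transforming growth factor beta are known inducers of *Tgm2*.

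*Tgm1* (ENSMUSG00000022218) lies on the minus strand of chromosome 14 of GRCm39, from 55937466 to 55951383, and *Tgm2* (ENSMUSG00000037820) on the minus strand of chromosome 2, from 157958322 to 157988359. The coding sequences of the canonical transcripts have 815 codons in *Tgm1* and 686 in *Tgm2*. The stretch around the codon of the active-site cysteine is shown first, because both enzymes have this residue. It is given 5′ to 3′ on the coding strand, with exons joined and the cysteine codon in capitals.
Tgm1: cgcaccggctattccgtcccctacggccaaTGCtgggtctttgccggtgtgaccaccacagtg
Tgm2: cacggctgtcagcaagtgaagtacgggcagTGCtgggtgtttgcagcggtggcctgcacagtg
The cysteine is codon 376 of *Tgm1*, in exon 7 at chr14:55946879-55946881, and codon 277 of *Tgm2*, in exon 6 at chr2:157973279-157973281. The stretches run into exon 8 and exon 7, respectively, and 40 of their 63 bases are identical (63.5%).

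The DNA before the canonical start of *Tgm1* is shown because this gene headed the ranking of ischemic change. The part of the 250 bases upstream of that start that lies outside every annotated exon is chr14:55951065-55951202 (GRCm39, minus strand). This part lies inside the annotated gene, which reaches 55951383, and is upstream of the canonical transcript only. It has in capitals a match to TTCNNNGAA, the palindrome that STAT proteins, the transcription factors downstream of cytokine receptors, are known to bind.
Tgm1 upstream: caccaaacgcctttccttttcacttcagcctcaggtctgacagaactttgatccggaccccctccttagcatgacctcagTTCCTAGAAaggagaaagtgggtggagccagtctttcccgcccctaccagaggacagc
The match lies at chr14:55951114-55951122 and begins 170 bases before the start. The 250 bases held 1 further match, TTCCCAGAA, which begins 61 bases before the start and overlaps an exon of a longer transcript. Of 21751 windows of 250 bases before the starts of protein-coding genes, 7.69% held at least 1 match to TTCNNNGAA on either strand. The *Tgm1* window also held 2 matches to GGGCGG (the SP1 motif, in 36.3% of windows) and none to TGANTCA (AP-1, in 6.17%) or TATAAA (the TATA box, in 11.9%), and 2 to a kappaB-like pattern of 3 G, 5 bases of any kind and 2 C (in 47.8%). The *Tgm2* window held 3 kappaB-like matches, of which 2 overlap, and none to the other 4 motifs. A match of letters is a description of the sequence, and binding was not measured in these libraries.

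The libraries held 25989676 to 43032300 reads on genes. *Cort* had 0 to 4 reads in each of the 8 *Cort*-/- libraries and 64 to 139 reads in each of the 6 *Cort*+/+ libraries, as the labels require. Brain tissue was recovered, with a summed level of 10 neuronal genes of 1948 to 2616 RPKM per library. No pair of libraries in a group was a copy, their chi-square per degree of freedom being 5.82 to 26.3. *Cort*+/+ CL replicate 1 and *Cort*-/- CL replicate 2 stood apart from the other CL libraries in *Tgm1* and in glial genes, and the changes of both members and the counts of list genes are given with and without them.

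*Tgm1* was nearly silent in CL hemispheres. Its level, in RPKM (reads scaled by library size and by gene length, so that genes of different length can be compared), was 0.412, 0.0288 and 0.00891 RPKM in *Cort*+/+ CL replicates 1 to 3 and 0.116, 0.780 and 0.154 RPKM in *Cort*-/- CL replicates 1 to 3. These values rest on 45, 3 and 1 reads, and on 12, 78 and 15 reads. Within each genotype a single CL library, *Cort*+/+ replicate 1 and *Cort*-/- replicate 2, lay well above the other 2. At this depth 3 reads of *Tgm1*, the most that a count of 0 allows for counting error, are worth 0.0229 to 0.0377 RPKM, so the lowest *Cort*+/+ CL levels are at or below that limit.

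In MCAO hemispheres *Tgm1* reached 5.81, 5.70 and 2.90 RPKM in *Cort*+/+ replicates 2, 3 and 4, and 7.84, 5.98, 4.38, 12.5 and 6.46 RPKM in *Cort*-/- replicates 1 to 5, with 270 to 1567 reads per library. All 8 MCAO libraries lay above every CL library, and the lowest MCAO level was 3.72 times the highest CL level. Because *Tgm1* was chosen from this change, the separation is a description, and the share of all genes so separated was not determined. The highest level was in *Cort*-/- MCAO replicate 4. Means were 0.150 ± 0.227 (SD, n = 3) and 4.80 ± 1.65 RPKM (SD, n = 3) in CL and MCAO hemispheres of *Cort*+/+ mice, and 0.350 ± 0.373 (SD, n = 3) and 7.43 ± 3.08 RPKM (SD, n = 5) in those of *Cort*-/- mice. The ratio of means was 32.0 in *Cort*+/+ and 21.2 in *Cort*-/- mice, and a single CL library carried most of either denominator. Without *Cort*-/- CL replicate 2 the CL mean was 0.135 RPKM and the ratio 55.1. Without *Cort*+/+ CL replicate 1 the CL mean of 0.0189 RPKM rests on 4 reads in all, and no ratio is given.

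*Tgm2*, in contrast, was already present in CL hemispheres, at 4.57, 4.02 and 3.56 RPKM in *Cort*+/+ and 5.15, 4.15 and 4.68 RPKM in *Cort*-/- replicates 1 to 3. In MCAO hemispheres it was at 6.56, 11.6 and 4.23 RPKM in *Cort*+/+ replicates 2, 3 and 4, and at 10.9, 8.08, 5.77, 11.2 and 10.2 RPKM in *Cort*-/- replicates 1 to 5. The *Cort*-/- groups did not overlap, whereas *Cort*+/+ MCAO replicate 4 lay among the CL libraries, so that 7 of 8 MCAO libraries exceeded every CL library. This too is a description of a gene chosen from the change, without the share of all genes beside it. Means were 4.05 ± 0.503 (SD, n = 3) and 7.47 ± 3.78 RPKM (SD, n = 3) in *Cort*+/+, and 4.66 ± 0.504 (SD, n = 3) and 9.23 ± 2.28 RPKM (SD, n = 5) in *Cort*-/- mice. Mean levels in MCAO hemispheres were thus 1.85 and 1.98 times those in CL hemispheres.

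**Figure D1:**
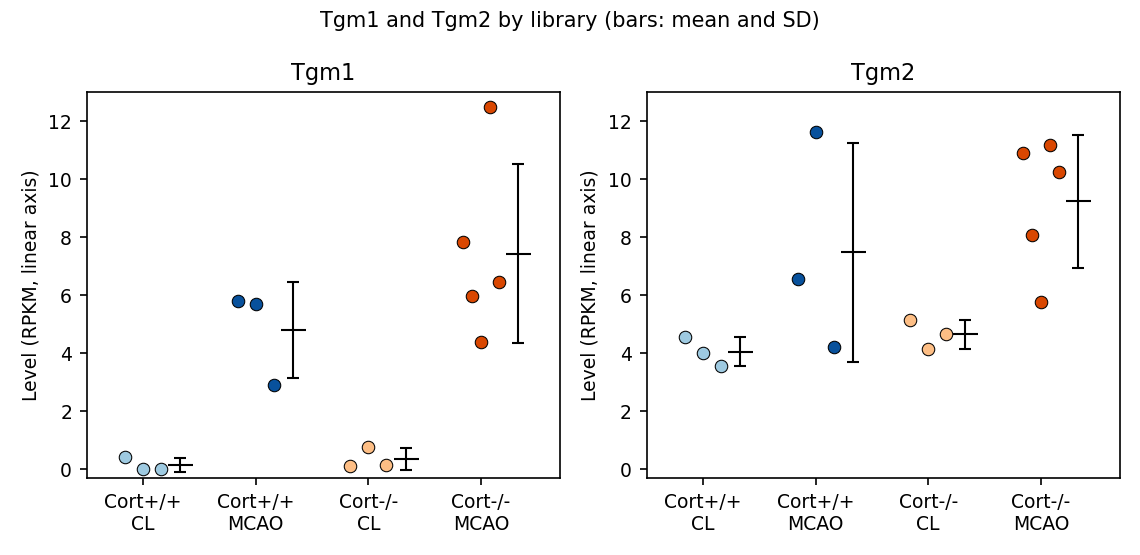
Levels of *Tgm1* (left) and *Tgm2* (right) in RPKM on a linear axis, 1 point per library in the 4 groups of genotype and hemisphere, with the mean and SD of each group as bars. *Tgm1* lay at or below 0.780 RPKM in CL and at or above 2.90 RPKM in MCAO libraries, while *Tgm2* started from 3.56 to 5.15 RPKM in CL libraries.

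The change between hemispheres was fitted on log2(RPKM + 0.1) values in a single limma model of the 4 groups, over the 46102 genes above 0 in at least 2 libraries. Because both genes were chosen from this change, it is described here without a test. The log2 fold change (log2FC) of *Tgm1* was 4.60 (SE 0.62) in *Cort*+/+ and 4.28 (SE 0.55) in *Cort*-/- mice, and that of *Tgm2* was 0.75 (SE 0.31) and 0.94 (SE 0.27). In the same fit 0.0108% of genes in *Cort*+/+ mice and 1.72% in *Cort*-/- mice passed a Benjamini-Hochberg adjusted p of 0.05. The size of the *Tgm1* change depends on the constant added to its low CL values: with 1 in place of 0.1 it was 2.31 in *Cort*+/+ and 2.61 in *Cort*-/- mice. Without the 2 CL libraries that stood apart, the log2FC of *Tgm1* was 5.31 in *Cort*+/+ and 4.92 in *Cort*-/- mice, and that of *Tgm2* was 0.84 and 0.86.

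Among the 15063 genes whose mean level reached 1 RPKM, *Tgm1* ranked 1 by log2FC in both genotypes. The rank depends on the constant as well: with 1 added, *Tgm1* ranked 2 in *Cort*+/+ and 5 in *Cort*-/- mice, and *Spp1* came first (log2FC 2.60 and 3.17). The genes just below it in *Cort*+/+ mice were *Ccl4*, a chemokine (log2FC 3.45), *Gm49339* (3.34), *Lilrb4a*, an inhibitory receptor of myeloid cells (3.33), *Cst7*, a protease inhibitor of activated microglia (3.22), and *Lgals3*, galectin-3 (3.13). *Gm49339* overlaps *Lilrb4a* on the same strand, so the reads of these genes may be shared. The ranking below it in *Cort*-/- mice began with *Ccl12*, a monocyte chemokine (3.98), *Lgals3* (3.64), *Cxcl10*, an interferon-induced chemokine (3.57), *Isg15*, an interferon-induced ubiquitin-like protein (3.52), and *Gm42793* (3.40), which overlaps *Spp1*. *Tgm2* ranked 343 in *Cort*+/+ and 354 in *Cort*-/- mice.

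Whether either gene differed between genotypes could be tested within each hemisphere, since that difference was not used to choose them. In CL hemispheres the mean log2 level of *Tgm1* was 0.92 higher in *Cort*-/- than in *Cort*+/+ mice (SE 0.62, limma adjusted p = 1), within the spread of the libraries (exact two-sided permutation p = 0.5, where 3 against 3 libraries allow no p below 0.1). In MCAO hemispheres it was 0.60 higher (SE 0.55, limma adjusted p = 1, exact permutation p = 0.196), and *Cort*+/+ replicates 2 and 3 lay among the *Cort*-/- libraries. The corresponding differences of *Tgm2* were 0.20 in CL (SE 0.31, limma adjusted p = 1, exact permutation p = 0.2) and 0.38 in MCAO hemispheres (SE 0.27, limma adjusted p = 1, exact permutation p = 0.393). Without the 2 CL libraries that stood apart, the differences in CL hemispheres were 0.98 for *Tgm1* and 0.37 for *Tgm2*. In the limma model 0.0152% of all genes differed between genotypes in CL and 0.0174% in MCAO hemispheres.

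The change from CL to MCAO did not pass the test for a difference between genotypes in either gene. Since the genes were chosen from these changes, the test of their difference is not independent of the choice. This interaction contrast was −0.32 for *Tgm1* (SE 0.83) and 0.18 for *Tgm2* (SE 0.41), each with a limma adjusted p that rounds to 1, and 0.00217% of all genes passed it. Its sign was not stable: without *Cort*-/- CL replicate 2 the *Tgm1* contrast was 0.32, and without *Cort*+/+ MCAO replicate 4 the *Tgm2* contrast was −0.16. In order of mean level, both genes were thus highest in *Cort*-/- MCAO, then *Cort*+/+ MCAO, *Cort*-/- CL and *Cort*+/+ CL hemispheres, and neighbours in that order that share a hemisphere did not differ beyond their spread.

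The ratio of *Tgm1* to *Tgm2* RNA differed between hemispheres. In CL libraries the *Tgm1* level was 9.03%, 0.717% and 0.250% of the *Tgm2* level in *Cort*+/+ replicates 1 to 3, and 2.25%, 18.8% and 3.29% in *Cort*-/- replicates 1 to 3. In MCAO libraries it was 88.4%, 49.0% and 68.5% in *Cort*+/+ replicates 2, 3 and 4, and 72.0%, 73.9%, 75.9%, 112% and 63.1% in *Cort*-/- replicates 1 to 5. *Tgm1* exceeded *Tgm2* in 1 of 8 MCAO libraries, *Cort*-/- replicate 4, and in 0 of 6 CL libraries. Since both genes were chosen from the hemispheres, the shift carries no test. Between genotypes the log2 ratio of *Tgm1* over *Tgm2* was 0.72 higher in *Cort*-/- CL hemispheres (exact permutation p = 0.5) and 0.22 higher in *Cort*-/- MCAO hemispheres (exact permutation p = 0.429), both within the spread of the libraries. Without the 2 CL libraries that stood apart, the CL difference was 0.62.

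**Figure D2:**
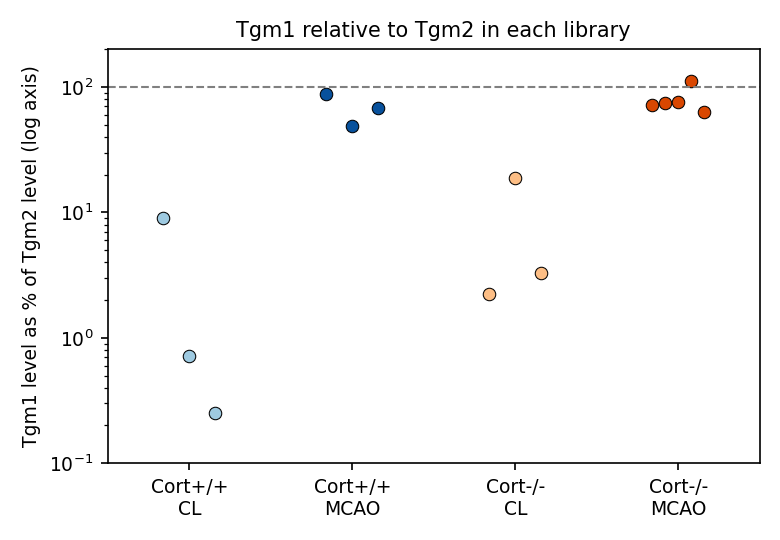
*Tgm1* level as a percentage of the *Tgm2* level in each library, on a log axis, with the dashed line at equal levels. CL libraries spread from 0.250% to 18.8%, and MCAO libraries from 49.0% to 112%, with a single library above the line.

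The other members of the family stayed low. *F13a1*, the A chain of coagulation factor XIII, which border macrophages also make, had the highest mean of the 7 relatives, with 0.679 ± 0.545 (SD, n = 3) and 0.792 ± 0.349 RPKM (SD, n = 3) in CL and MCAO hemispheres of *Cort*+/+ mice, and 0.882 ± 0.335 (SD, n = 3) and 1.47 ± 0.821 RPKM (SD, n = 5) in those of *Cort*-/- mice. *Tgm3*, an enzyme of hair and epidermis, had means of 0.577 to 0.697 RPKM in the 4 groups. *Tgm7* had means of 0.231 to 0.384 RPKM and *Tgm4*, the prostate enzyme, of 0.154 to 0.204 RPKM. *Tgm6*, a neuronal enzyme, had means of 0.0629 to 0.0834 RPKM and *Tgm5*, another epidermal enzyme, of 0.0180 to 0.0274 RPKM. *Epb42*, the inactive relative in the red cell membrane, had means of 0.00577 to 0.0202 RPKM. None of the 7 passed the test between hemispheres in either genotype, and their log2FC ranged from −0.23 (*Tgm4*) to 0.34 (*F13a1*) in *Cort*+/+ and from −0.33 (*Tgm7*) to 0.57 (*F13a1*) in *Cort*-/- mice.

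Genes that share the ground of the members did not pass the test either. *Rabggta*, 717 bases from *Tgm1*, had a log2FC of 0.05 (*Cort*+/+) and 0.03 (*Cort*-/-), and *Tinf2*, also within 20 kb, of 0.14 and 0.25. *Gm49067*, a long non-coding RNA that overlaps *Tgm1* on the opposite strand, had a mean of 0.195 RPKM and log2FC values of −0.42 and −0.26. *Rprd1b*, which overlaps *Tgm2* on the opposite strand, had values of −0.00 and −0.09, and the non-coding *Gm20412* a mean of 0.0250 RPKM. The kit kept strand, but whether strand was used in counting is not given in the sources used here, so reads of these overlapping genes may be shared with the members.

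The members were next set against 23 lists of genes, 231 genes in all with the members left out, to show which groups moved between hemispheres along with them. In *Cort*-/- mice 43 list genes rose and 9 fell in MCAO hemispheres, beside 1.34% and 0.382% of all genes tested, and 111 had an unadjusted p under 0.05, beside 12.7%. In *Cort*+/+ mice no list gene passed the limma test, although 76 had an unadjusted p under 0.05 (7.87% of all genes did). These counts depend on single libraries: 20 list genes rose in *Cort*+/+ mice without *Cort*+/+ MCAO replicate 4, and 9 rose in *Cort*-/- mice without *Cort*-/- CL replicate 1 or 3. No list gene fell without *Cort*-/- CL replicate 1. Without the CL libraries that stood apart, 25 list genes rose and 1 fell in *Cort*-/- mice. No list gene differed between genotypes in either hemisphere or in the interaction by limma, at an adjusted p under 0.05, and 10, 13 and 5 had an unadjusted p under 0.05 (3.91%, 3.82% and 3.31% of all genes did). Median log2FC over all genes tested was 0.00 in both genotypes.

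Genes of the cornified envelope, the structure that TGM1 builds in skin, were tested next. Of 11 tested, 2 rose and none fell in *Cort*-/- mice, where 1.34% of all genes rose, and the median log2FC was −0.07 (*Cort*+/+) and −0.00 (*Cort*-/-). The risers were *S100a11*, a calcium-binding protein found in many cells as well as in the envelope (log2FC 1.30 and 1.78, limma adjusted p = 0.279 and 0.0172), and *Cdsn*, corneodesmosin (0.43 and 0.69, limma adjusted p = 0.491 and 0.0324, a gene named after its values were seen). *Loricrin*, the main envelope protein, had log2FC values of −0.26 and −0.18, and *Evpl*, envoplakin, of 0.04 and −0.27. *Flg*, *Sprr1b* and *Sprr3* were not analysed here. None of 9 keratinocyte genes passed the test, including *Krt10* (−0.19 and −0.31) and *Krt1* (0.09 and −0.10), and their summed level was 4.04 to 4.35 and 3.69 to 4.43 RPKM in CL and MCAO hemispheres of *Cort*+/+ mice, and 3.80 to 4.25 and 3.21 to 3.97 RPKM in those of *Cort*-/- mice.

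Partners of TGM2 at the cell surface and in the matrix rose in part. Of 10 tested, 3 rose in *Cort*-/- mice, with a median log2FC of 0.26 (*Cort*+/+) and 0.32 (*Cort*-/-). *Spp1*, osteopontin, a substrate of TGM2, went from 9.95 ± 2.65 (SD, n = 3) to 107 ± 54.8 RPKM (SD, n = 5) in *Cort*-/- mice (log2FC 3.28, SE 0.53, limma adjusted p = 0.0130) and had a log2FC of 2.70 in *Cort*+/+ mice. *Fn1*, fibronectin, had a mean of 8.23 ± 0.205 (SD, n = 3) in CL hemispheres against 14.01 ± 1.96 RPKM in MCAO hemispheres (SD, n = 5) in *Cort*-/- mice (log2FC 0.75, limma adjusted p = 0.0231). The third was *Itgb1*, the integrin chain that TGM2 binds (log2FC 0.48, limma adjusted p = 0.0147, named after its values were seen). *Itga5*, its fibronectin-binding partner, had a log2FC of 0.90 and a limma adjusted p of 0.0514.

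The pathways known to induce *Tgm2* were then examined. Of 12 genes of the retinoic acid pathway, 1 rose and 1 fell in *Cort*-/- mice, with a median log2FC of 0.03 (*Cort*+/+) and 0.17 (*Cort*-/-) and 9 values above 0 in *Cort*-/- mice. The receptor *Rarb*, itself a target of retinoic acid, fell from 5.55 ± 0.575 (SD, n = 3) to 3.44 ± 0.489 RPKM (SD, n = 5) (log2FC −0.68, limma adjusted p = 0.0149). *Aldh1a2*, which makes retinoic acid, had a log2FC of 0.66 and *Crabp2*, which carries it, of 0.56, and neither passed the test. Of 10 genes of the transforming growth factor beta pathway, 8 had a log2FC above 0 in *Cort*-/- mice (median 0.16 in *Cort*+/+ and 0.24 in *Cort*-/-), none fell and 3 rose: the ligand *Tgfb1* (log2FC 1.23, limma adjusted p = 0.0166), the receptor *Tgfbr2* (0.70, limma adjusted p = 0.0209) and the coreceptor *Eng* (0.56, limma adjusted p = 0.00990, named after its values were seen).

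Among glial genes the reactive and activated lists had the largest medians. Of 14 genes of reactive astrocytes, 6 rose in *Cort*-/- mice, with a median log2FC of 1.50 (*Cort*+/+) and 1.71 (*Cort*-/-). *Vim*, the intermediate filament vimentin, had a mean of 19.9 ± 9.22 (SD, n = 3) in CL hemispheres against 103 ± 41.5 RPKM in MCAO hemispheres (SD, n = 5) in *Cort*-/- mice (log2FC 2.36, limma adjusted p = 0.00904). *Timp1*, a protease inhibitor, and *Serpina3n* had log2FC values of 2.68 and 2.33 in *Cort*-/- mice and did not pass the test. Homeostatic astrocyte genes had medians of 0.00 and −0.02, and 1 of 12, the water channel *Aqp4*, rose (log2FC 0.68, limma adjusted p = 0.0232).

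Of 13 genes of activated microglia, 12 rose in *Cort*-/- mice, with a median log2FC of 1.23 (*Cort*+/+) and 1.27 (*Cort*-/-). *Lgals3* had a mean of 0.828 ± 0.770 (SD, n = 3) in CL hemispheres against 9.48 ± 3.07 RPKM in MCAO hemispheres (SD, n = 5), *Cst7* of 0.296 ± 0.215 (SD, n = 3) and 2.76 ± 1.20 RPKM (SD, n = 5) and *Cd68*, a lysosomal protein, of 8.40 ± 2.87 (SD, n = 3) and 33.4 ± 10.1 RPKM (SD, n = 5). The gene that did not pass was *Apoe*, with log2FC values of −0.03 and −0.11. Homeostatic microglia genes had medians of 0.61 and 0.67, and 4 of 11 rose in *Cort*-/- mice, among them *Olfml3* (log2FC 1.54, limma adjusted p = 0.00904).

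Genes of infiltrating macrophages had a median log2FC of 0.77 (*Cort*+/+) and 1.15 (*Cort*-/-), and 3 of 11 rose in *Cort*-/- mice, including *S100a4* (log2FC 2.29, limma adjusted p = 0.0228). *Chil3* and *Thbs1* had log2FC values of 2.17 and 1.03 and did not pass the test. In border macrophages 1 of 9 genes rose, the scavenger receptor *Stab1* (1.23, limma adjusted p = 0.0460), and in neutrophils 1 of 11, the receptor *Csf3r* (0.66, limma adjusted p = 0.0145), while the neutrophil genes *S100a8* and *S100a9* had values of 0.08 and −0.05. Of 11 T cell genes *Cd4* fell (−1.53, limma adjusted p = 0.0332) and none rose.

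Vascular, fibroblast and neuronal lists had medians below those of reactive astrocytes and activated microglia. The medians were 0.10 (*Cort*+/+) and 0.44 (*Cort*-/-) for endothelium, 0.06 and 0.27 for mural cells, and 0.34 and 0.51 for fibroblasts. In *Cort*-/- mice 2 of 12 endothelial genes rose, *Kdr* (log2FC 0.75) and *Cdh5* (0.55), as did 2 of 10 mural cell genes, *Tagln* (1.42) and *Notch3* (0.42), and 1 of 9 fibroblast genes, *Dcn* (0.67). Of 8 genes of injured neurons *Atf3* rose (2.31, limma adjusted p = 0.0169). Of 10 genes of striatal spiny neurons 7 fell in *Cort*-/- mice, with a median log2FC of −0.68 (*Cort*+/+) and −0.80 (*Cort*-/-), among them the adenosine receptor *Adora2a* (−1.17) and *Rgs9* (−0.98). With 1 library left out, 0 to 10 of them fell and the median ranged from −0.89 to −0.70, and the count was 0 without *Cort*-/- CL replicate 1 and 1 without *Cort*-/- CL replicate 2 or 3 or *Cort*-/- MCAO replicate 4. No gene of mature oligodendrocytes, oligodendrocyte precursors, pan-neuronal genes or choroid plexus passed the limma test, with medians of −0.13 to 0.06 in *Cort*+/+ and −0.11 to 0.17 in *Cort*-/- mice.

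Which list genes passed depended on the CL libraries. Without both that stood apart, the list medians moved by −0.06 to 0.20 in *Cort*+/+ and by −0.13 to 0.20 in *Cort*-/- mice. In *Cort*-/- mice 8 genes of activated microglia and 5 of reactive astrocytes then rose, as did 3 of the transforming growth factor beta pathway, 2 of infiltrating macrophages and 2 of mural cells. A single gene rose among cornified envelope genes, TGM2 partners, homeostatic microglia, neutrophils and fibroblasts each, and 1 spiny neuron gene fell. No gene of the other lists passed, including endothelium, border macrophages, homeostatic astrocytes, injured neurons, T cells and the retinoic acid pathway. With 1 library left out, 3 to 12 genes of activated microglia and 1 to 8 of reactive astrocytes rose.

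**Figure D3:**
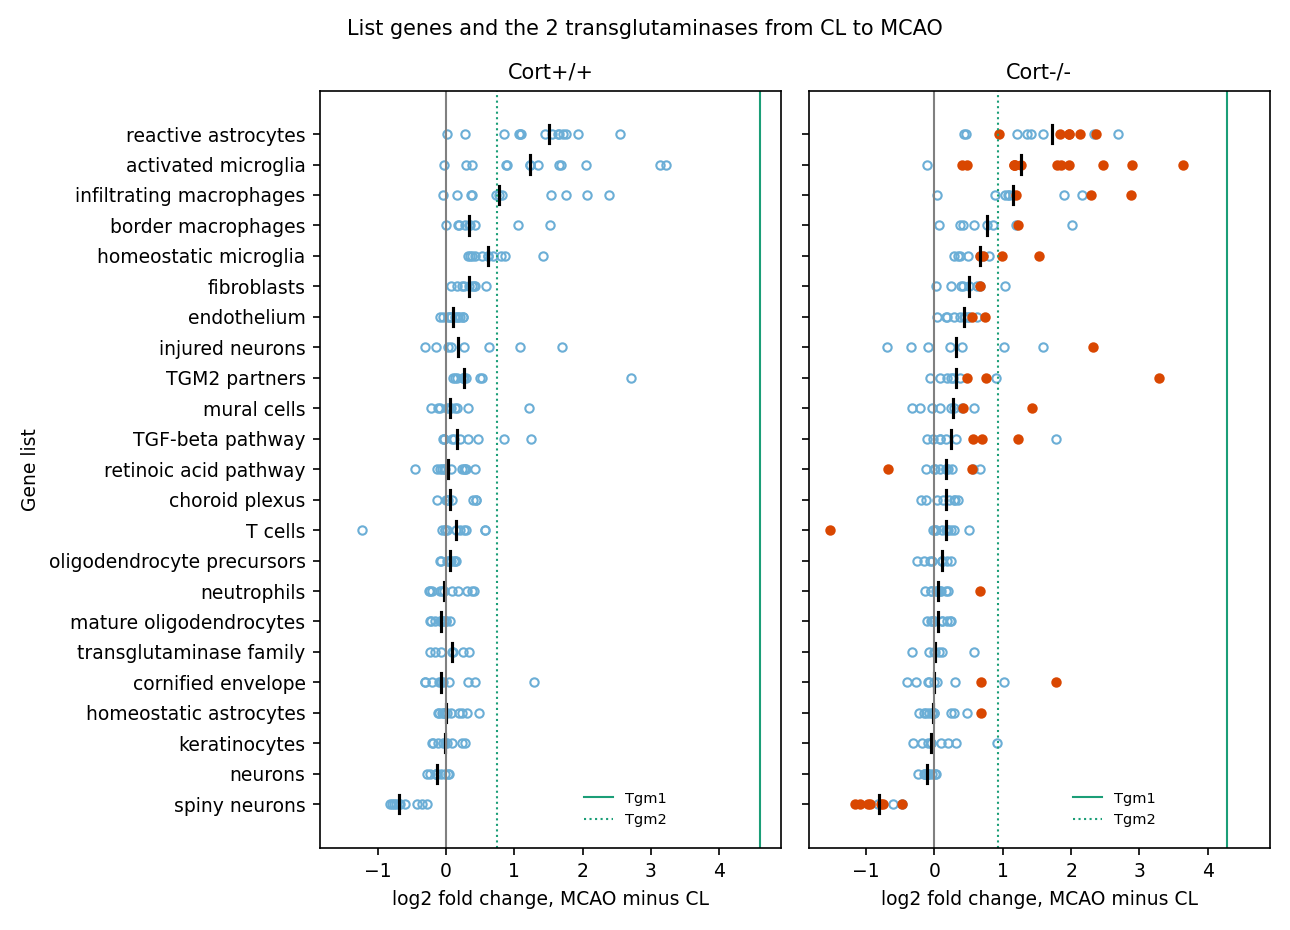
Log2 fold change from CL to MCAO of every list gene in *Cort*+/+ (left) and *Cort*-/- mice (right), 1 row per list, with filled points for genes past an adjusted p of 0.05 and short black bars at list medians. The lines mark *Tgm1* (solid, 4.60 and 4.28), which lies beyond every list gene in both genotypes, and *Tgm2* (dotted, 0.75 and 0.94).

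How the members vary from brain to brain was examined across the 8 MCAO libraries, a variation that did not enter their choice. *Tgm1* and *Tgm2* were correlated on the log2 scale (Pearson r = 0.823, exact permutation p = 0.00697, adjusted over 23 relations p = 0.0267), and Spearman's rho was 0.643 (exact permutation p = 0.0962, adjusted p = 0.170). Without the 2 libraries farthest from the *Tgm1* median, r was 0.717, and without *Cort*+/+ MCAO replicate 4, the lowest for both genes, it was 0.655 and did not pass (exact permutation, adjusted p = 0.188). With 3 *Cort*+/+ and 5 *Cort*-/- libraries, too few remain for a value within each genotype. Of 15062 other genes at this mean level or above (1 RPKM), 4.43% showed a higher r with *Tgm1* than *Tgm2* did.

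Against 11 lists of glial, immune, vascular and neuronal genes, each taken as its mean log2 level in a library, *Tgm1* was correlated with 4. Its closest relation was with reactive astrocytes (r = 0.938, adjusted exact permutation p = 0.00627; rho 0.857, adjusted p = 0.0493), with r = 0.856 without the 2 farthest libraries. Activated microglia (r = 0.844, adjusted exact permutation p = 0.0302) and border macrophages (r = 0.823, adjusted exact permutation p = 0.0353) followed, and spiny neurons ran the other way (r = −0.824, adjusted exact permutation p = 0.0353). The rho values of these 3 lists, 0.810, 0.762 and −0.762, did not pass after adjustment. For infiltrating macrophages r was 0.760 (adjusted exact permutation p = 0.0563), and for endothelium 0.780 (adjusted exact permutation p = 0.0587), which dropped to 0.168 without the 2 farthest libraries and thus rested on them. For homeostatic microglia r was 0.688 (adjusted exact permutation p = 0.0953), which did not pass, and it was 0.891 without the 2 farthest libraries. Homeostatic astrocytes (0.354), fibroblasts (0.671), neutrophils (0.573) and mature oligodendrocytes (−0.451) did not pass. Unlike the r of their mean, the median r of single homeostatic astrocyte genes with *Tgm1* was negative (−0.288).

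*Tgm2* was correlated with 6 of the 11 lists. The highest values were with activated microglia (r = 0.941, adjusted exact permutation p = 0.00685), reactive astrocytes (r = 0.935, adjusted exact permutation p = 0.00456) and infiltrating macrophages (r = 0.928, adjusted exact permutation p = 0.00646), with rho of 0.881, 0.929 and 0.905 (each with an adjusted p of 0.0493). Without the 2 farthest libraries these r were 0.781, 0.827 and 0.863. Homeostatic microglia (r = 0.832, adjusted exact permutation p = 0.0302) dropped to 0.304 without the 2 farthest libraries, and border macrophages (r = 0.817, adjusted exact permutation p = 0.0316) to 0.659. Spiny neurons had r = −0.869 (adjusted exact permutation p = 0.0235), and −0.609 without the 2 farthest libraries. The rho of border macrophages, 0.857, passed after adjustment (exact permutation, adjusted p = 0.0493). Those of homeostatic microglia (0.714, exact permutation, adjusted p = 0.120) and spiny neurons (−0.833, exact permutation, adjusted p = 0.0589) did not. Endothelium (0.479), fibroblasts (0.632), neutrophils (0.451) and homeostatic astrocytes (0.184) did not pass. For single homeostatic astrocyte genes the median r with *Tgm2* was again negative (−0.347).

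**Figure D4:**
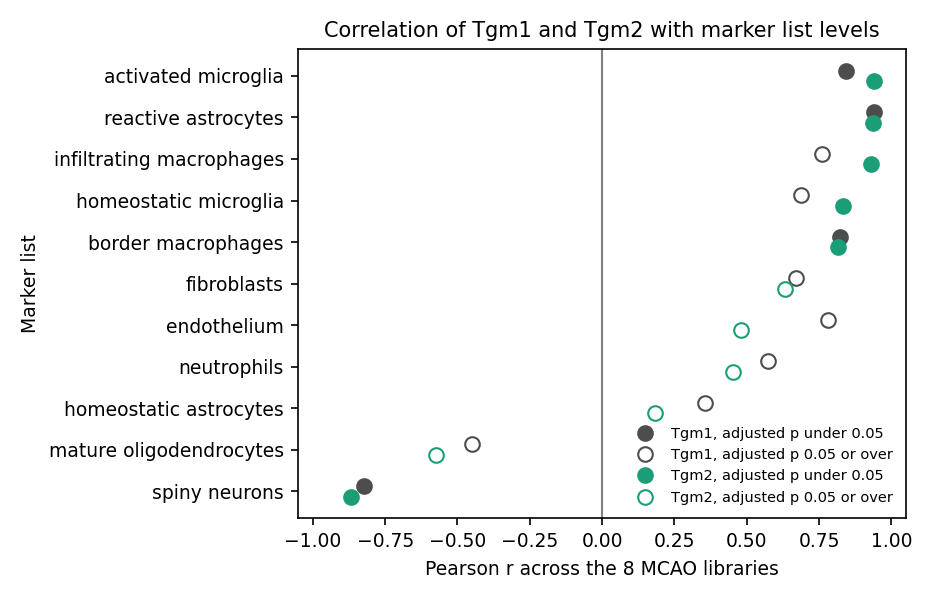
Pearson r of *Tgm1* (grey) and *Tgm2* (green) with the mean log2 level of 11 marker lists across the 8 MCAO libraries, with filled points where the adjusted exact permutation p is under 0.05. *Tgm1* passed with 4 lists and *Tgm2* with 6, and r was 0.938 and 0.935 for reactive astrocytes.

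These relations leaned on the spread among few libraries. Without *Cort*+/+ MCAO replicate 4, which had the lowest levels of both members, of reactive astrocyte genes and of activated microglia genes among MCAO libraries, *Tgm1* passed with 0 and *Tgm2* with 1 of the 11 lists. Then r with reactive astrocytes was 0.907 for *Tgm1* (adjusted exact permutation p = 0.0685) and 0.906 for *Tgm2* (adjusted exact permutation p = 0.0411). For *Tgm1* with activated microglia it dropped to 0.679. Levels also varied with depth in MCAO libraries: r with the number of reads was 0.656 for *Tgm1* (exact permutation p = 0.0940) and 0.761 for *Tgm2* (exact permutation p = 0.0236), and 0.271 and 0.468 without the shallowest libraries, *Cort*-/- MCAO replicate 3 and *Cort*+/+ MCAO replicate 4. The part of depth in these relations was not tested.

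Single genes of the lists varied with the members as well. *Vim* and *Timp1* had r of 0.945 and 0.952 with *Tgm1* and of 0.802 and 0.925 with *Tgm2*. *Thbs1* and *Chil3*, of infiltrating macrophages, had r of 0.980 and 0.935 with *Tgm2* and of 0.800 and 0.783 with *Tgm1*. *Spp1* and *Fn1* had r of 0.868 and 0.885 with *Tgm1* and of 0.949 and 0.930 with *Tgm2*, and *Rarb* of −0.930 and −0.812. These are descriptions over 8 libraries, without a test of any difference between the members.

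In CL libraries, of which there are 6, the r of *Tgm1* with the same 11 lists ran from −0.885 (mature oligodendrocytes) to 0.960 (reactive astrocytes) and that of *Tgm2* from −0.320 (homeostatic microglia) to 0.534 (border macrophages). *Cort*+/+ CL replicate 1 and *Cort*-/- CL replicate 2, the libraries with most *Tgm1*, had mean log2 levels of 1.99 and 1.93 for reactive astrocytes against 0.83 to 1.24 in the other 4, and of 2.34 and 2.44 for activated microglia against 1.78 to 2.04. The reactive astrocyte level of these CL libraries was about that of *Cort*+/+ MCAO replicate 4, at 1.93, in which *Tgm1* was at 2.90 RPKM against 0.412 and 0.780 RPKM. This comparison rests on 1 MCAO library. *Tgm1* was chosen for its higher level in MCAO hemispheres, so the difference carries no test. Across the CL libraries r was 0.960 for *Tgm1* with reactive astrocytes, 0.950 with activated microglia and 0.942 with infiltrating macrophages, and 0.344, 0.128 and 0.147 for *Tgm2*. For *Tgm1* it was −0.840 with spiny neurons, −0.411 with endothelium and −0.295 with homeostatic microglia. Because 2 libraries stand apart from the other 4, these values are given as a description, and the 4 are too few for a value of their own. Between *Tgm1* and *Tgm2* r was 0.327 in CL libraries.

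**Figure D5:**
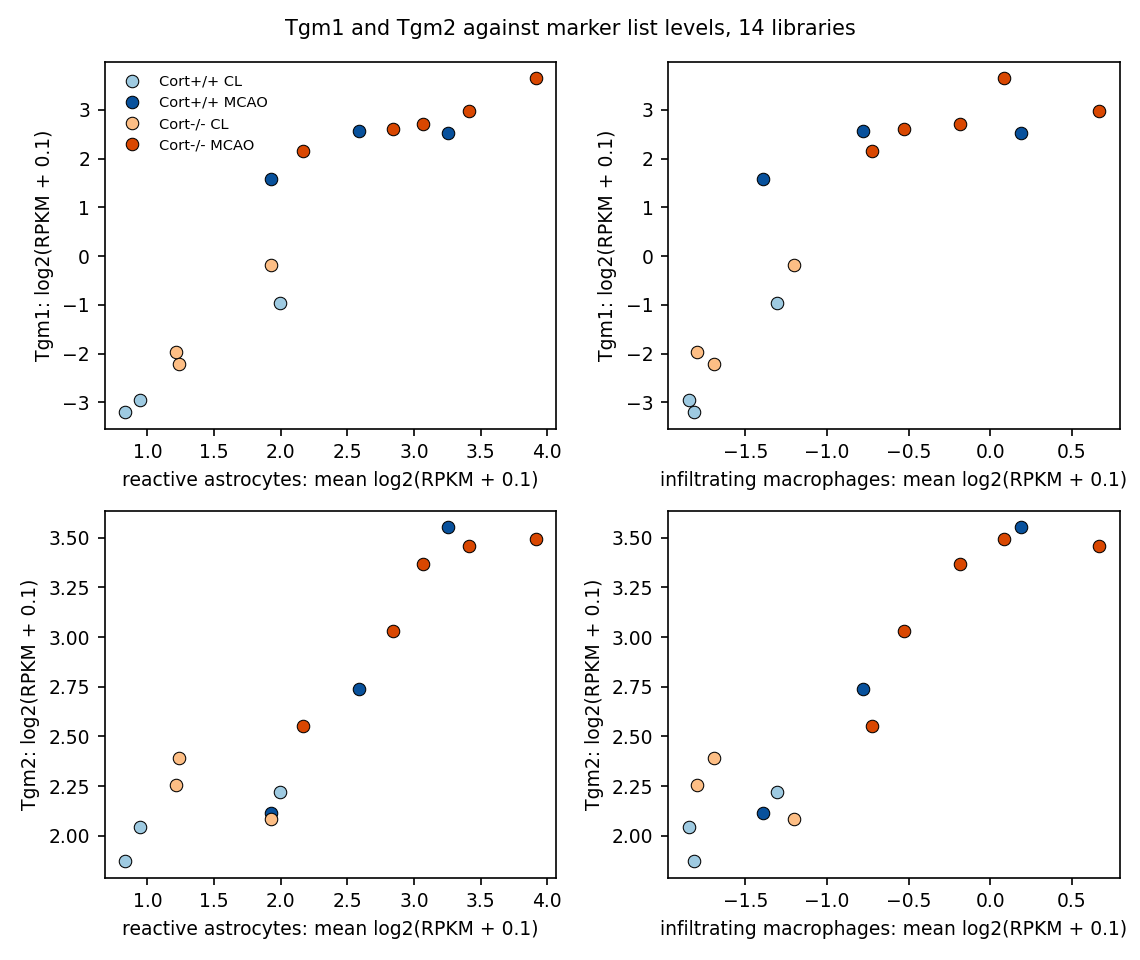
Log2(RPKM + 0.1) of *Tgm1* (top) and *Tgm2* (bottom) against the mean log2(RPKM + 0.1) of reactive astrocyte genes (left) and infiltrating macrophage genes (right) in the 14 libraries, colored by genotype and hemisphere. In the left panels *Cort*+/+ MCAO replicate 4, with a reactive astrocyte level of 1.93, sits beside the CL libraries at 1.93 and 1.99 on the horizontal axis. It lies above them in *Tgm1*, a gene chosen for its higher level in MCAO hemispheres.

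Finally, the genes whose levels were most like those of each member were ranked by Pearson r across the 8 MCAO libraries, among genes with means from 1 RPKM upward. For *Tgm1* they were *Rps2*, a ribosomal protein (r = 0.982), *Notch1*, a receptor (0.977), *Add3*, adducin 3 of the membrane skeleton (0.975), *Dock1*, an activator of Rac (0.973), and *Plcb3*, a phospholipase C (0.970). Their own log2FC from CL to MCAO ran from 0.19 to 0.33 in *Cort*+/+ and from 0.29 to 0.46 in *Cort*-/- mice. For *Tgm2* they were *Ifi204*, an interferon-induced DNA sensor (r = 0.998), *Il1r1*, the interleukin-1 receptor (0.990), *Trib1*, a pseudokinase (0.988), *Ifit3*, an interferon-induced protein (0.988), and *Dhx58*, an RNA sensor (0.988). Their log2FC ran from 0.15 (*Il1r1*) to 2.49 (*Ifi204*) in *Cort*+/+ and from 0.42 (*Il1r1* and *Trib1*) to 3.10 (*Ifi204*) in *Cort*-/- mice. The *Tgm2* genes had r of 0.781 to 0.831 with *Tgm1*, and the *Tgm1* genes r of 0.797 to 0.859 with *Tgm2*. The median r over all 15062 genes was −0.06 for both members, and 1.20% of genes had an r over 0.9 with *Tgm1* and 2.89% with *Tgm2*.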

How the data were processed

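RNA of 14 hemispheres was sequenced by the authors from a stranded polyA kit as paired reads. Per the labels and methods, reads were aligned to GRCm39 with reanalyzerGSE v3.0.0, counted on GENCODE M28 genes and deposited as RPKM (scaled by library size and gene length), with no pooling of replicates. Positions come from GENCODE M39 of the same build. Of 495656 values above 0, 100% came back as whole reads (tolerance 0.001 reads), which gave the reads and depths printed here. Labels call the replicates independent.

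RPKM are not counts, so log2(RPKM + 0.1) was fitted with limma 3.58.1 in R 4.3.3 (4 groups, moderated variances with trend, Benjamini-Hochberg over 46102 genes). Single values were compared with exact two-sided permutation tests in Python 3.11.15 with scipy 1.17.1, numpy 2.4.6 and pandas 2.3.3, and figures were drawn with matplotlib 3.10.9. The recovery of reads, the limma fit and the exact test of correlations were tested on simulated data. Correlations use at least 6 libraries. Named genes are the members, their family, neighbours within 20 kb, up to 3 genes per list of largest change in *Cort*-/- mice at a mean level from 1 RPKM upward, and the 5 genes nearest by rank or r. Some genes that meet this rule are not reported here. The members and the 23 lists were chosen with earlier results of these data known. Alternatives were other pseudocounts, filters and scalings, voom on the recovered reads, library weights, replicate blocks and leaving out libraries. Leaving out *Cort*+/+ CL replicate 1 and *Cort*-/- CL replicate 2 together, and ranking *Tgm1* in every alternative, were chosen after seeing the data.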

Additional observations from a re-analysis of the deposited data

Results flagged for a closer look

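In the *Cort*-/- MCAO group, the mean log2 level of 10 genes of mature oligodendrocytes was 6.13 in replicate 4, far below the other 4 libraries for the range of the group. Outside this group, *Cort*+/+ MCAO replicate 3 (6.10) and *Cort*-/- CL replicate 2 (6.04) were lower still. *Cort*-/- MCAO replicate 4 also had the highest *Tgm1* level. Its oligodendrocyte level was the 1 value that stood apart in this way among the 21 group values examined, and chance alone marks about 1 in 20.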

How the results depend on the processing

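The *Tgm1* change between hemispheres kept its direction in every alternative run, and its size depended on how low values were treated. *Tgm1* ranked 1 in 26 of 27 alternatives in *Cort*+/+ and in 25 of 27 in *Cort*-/- mice, and was otherwise 2 to 5, with a pseudocount of 1 or without *Cort*-/- CL replicate 1. Some of these alternatives could not move the rank. Other filters, or leaving out a library of the other genotype, left the fold unchanged. The gene was also chosen by this rank, so the count is a description. In *Cort*+/+ mice the *Tgm1* change was 2.31 with a pseudocount of 1, 6.08 with 0.01 and 6.36 with voom, and in *Cort*-/- mice 2.61 with a pseudocount of 1. With 1 library left out it ranged from 4.19 to 5.31 in *Cort*+/+ and from 3.91 to 4.92 in *Cort*-/- mice, and that of *Tgm2* from 0.38 to 1.10 and from 0.86 to 1.09. The interaction changed sign for *Tgm1* with a pseudocount of 1 (0.30), with single libraries left out (range −1.02 to 0.32), and for *Tgm2* with single libraries left out (range −0.16 to 0.56). No genotype test of either member passed in any alternative.

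The count of list genes that rose in *Cort*+/+ mice was 5 with a pseudocount of 0.01 or a filter at a mean of 0.5 RPKM, 1 after rescaling to TPM, quantile normalization or library weights, 8 with voom, 3 without the CL libraries that stood apart, and 0 to 20 with 1 library left out, where 0 to 1 fell. In *Cort*-/- mice 9 to 51 rose and 0 to 12 fell with 1 library left out, and 25 rose and 1 fell without both CL libraries that stood apart. The lowest counts of risers came without *Cort*-/- CL replicate 1 or 3 (9 each) and without *Cort*-/- MCAO replicate 1 (23) or 4 (25). The fallen list genes numbered 0 without *Cort*-/- CL replicate 1.

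With single libraries left out, the log2 ratio of *Tgm1* over *Tgm2* differed between genotypes by −0.00078 to 1.33 in CL and −0.0052 to 0.42 in MCAO hemispheres. The r of *Tgm1* with *Tgm2* ranged from 0.655 to 0.915 and missed the threshold without *Cort*+/+ MCAO replicate 4 or *Cort*-/- MCAO replicate 2 or 3, and that of *Tgm2* with homeostatic astrocytes from −0.019 to 0.734. Lists past the threshold numbered 0 to 5 for *Tgm1* and 1 to 6 for *Tgm2*.

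Replicate numbers recur in the groups, but the labels do not tie them to animals. Deviations of same-numbered CL and MCAO libraries from their group means correlated from −0.141 to 0.316 in *Cort*+/+ and from −0.239 to 0.027 in *Cort*-/- mice. With so few libraries per group these values cannot decide whether hemispheres were paired. With a replicate block by number or by pair, 0 list genes rose and 0 fell in *Cort*-/- mice. With the block by pair, the *Tgm1* change was 5.63 and the *Tgm2* change 1.19 in *Cort*+/+ mice, and the *Tgm2* interaction was −0.42. Where CL libraries hold 1 to 3 reads of *Tgm1*, depth limits the precision of the fold.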
